A study of Homo sapiens with 6 samples.

Results

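Interferon response genes are the genes that cells switch on when they sense foreign nucleic acid or receive an interferon signal. The 45 described here were picked by symbol (interferon-stimulated effectors, with the sensors and transcription factors that drive them), and all 45 were found among the 20111 genes of the deposited table. The RNA came from MDA-MB-231, an established line of human triple-negative breast cancer, which lacks oestrogen and progesterone receptors and amplified ERBB2. Cells received an siRNA against NCOA3 (a nuclear receptor coactivator), an siRNA against SHC1 (an adaptor of receptor tyrosine kinases) or a control siRNA, called siNCOA3, siSHC1 and siControl, and were collected 48 h or 24 h after transfection. Each siRNA and time has 1 library, which makes 6 libraries in all.

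All 6 libraries came from transfected cells, and no mock-transfected or untreated cells were analysed here. The values therefore compare siRNAs and times with each other, and a response to transfection itself has no baseline. The sources used here give neither the siRNA sequences nor how many siRNAs each name covers, and whether each library had its own culture is not stated. In RNA from a whole culture, fewer expressing cells and less RNA per cell cannot be told apart.

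As background, double-stranded RNA in the cytoplasm is sensed by RIG-I (the gene DDX58) and MDA5 (IFIH1), which signal through the adaptor MAVS. Cytoplasmic DNA is sensed through cGAS and the adaptor STING (TMEM173). Both routes activate the factor IRF3, and with it interferon genes and some effector genes directly. Secreted interferon acts through the kinases JAK1 and TYK2, and a complex that holds STAT2 and IRF9 then binds the interferon-stimulated response element (ISRE) before the effector genes. An siRNA is itself a short double-stranded RNA, so these genes are read as a check of transfection experiments.

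The promoter elements are shown first, because many of these genes share them. The genes were picked as interferon-stimulated, and such genes are known for this element, so that its frequency among them is no independent finding. RefSeq promoters of GRCh38.p14 (250 bases before to 50 bases after the start site) were matched for 38 of the 45 genes. The ISRE word searched was GAAA, any 2 bases and GAAA again, on both strands, with overlapping matches kept. It was present in 22 of 38 promoters (57.9%), against 1255 of 35116 RefSeq promoters (3.57%), which are not limited to the genes tested here. The word TTCNNNGAA, which STAT dimers bind and which reads the same on both strands, was present in 8 of 38 (21.1%), against 7.66% of all promoters. A match describes the letters in this window and does not show that a factor was bound. The stretches below lie before genes whose values are given later. Capitals mark 1 match of the ISRE word in each stretch. The word reads as a repeat of TTTC where it lies on the other strand. ISG20 and TNFSF10 are among the genes called below and are shown over the 250 bases before the start site, chr15:88638766-88639015 on the plus strand and chr3:172523431-172523680 on the minus strand.

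ISG20: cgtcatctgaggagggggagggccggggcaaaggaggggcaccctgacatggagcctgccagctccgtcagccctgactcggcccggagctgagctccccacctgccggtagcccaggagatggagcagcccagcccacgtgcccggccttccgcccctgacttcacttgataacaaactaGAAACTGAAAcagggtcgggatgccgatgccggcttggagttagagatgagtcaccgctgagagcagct
TNFSF10: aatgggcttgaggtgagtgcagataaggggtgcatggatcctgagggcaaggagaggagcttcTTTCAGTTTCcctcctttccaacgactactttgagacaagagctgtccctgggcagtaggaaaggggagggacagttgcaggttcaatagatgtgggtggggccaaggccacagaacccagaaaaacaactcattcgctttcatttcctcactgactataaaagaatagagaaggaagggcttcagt

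The other stretches are 30 bases long and were chosen to compare the element between neighbouring and abundant genes. IFIT1 lies at chr10:89392497-89392526 (plus strand), IFIT3 at chr10:89327865-89327894 (plus strand), ISG15 at chr1:1013380-1013409 (plus strand), IFI27 at chr14:94110618-94110647 (plus strand) and BST2 at chr19:17405741-17405770 (minus strand). Among the marked matches, IFIT1 and IFIT3 hold the same 10 letters, and so do ISG20 and BST2. Read on the other strand, TNFSF10 holds those of ISG20 and BST2, and IFI27 holds those of ISG15. IFIT1, IFIT3, ISG15, IFI27 and BST2 each have 2 matches in the window searched, and only 1 of them is marked. In ISG15 and BST2 the other match overlaps the marked one and is partly in lower case.

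IFIT1: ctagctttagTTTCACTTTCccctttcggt
IFIT3: tttaaattagTTTCACTTTCcagtttcctc
ISG15: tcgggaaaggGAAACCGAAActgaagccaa
IFI27: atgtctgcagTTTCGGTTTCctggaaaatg
BST2: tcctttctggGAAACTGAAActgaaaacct

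The changes of genes with and without the word in the searched window overlapped, and the distance between their medians varied with the comparison. Genes without it there may hold the element elsewhere. Between siSHC1 and siControl libraries, the fitted log2 changes had a median of 0.05 over the 22 genes with the word and of 0.03 over the 15 matched genes without it that passed the filter on low values. Genes with the word ranged from -0.53 for GBP1 to 0.58 for ISG20. The genes with no promoter entry are in neither set. They were IFIT2 (0.70), MX2 (0.59), IRF7 (0.47), USP18 (0.20), GBP2 (0.04), OASL (-0.07) and OAS2 (-0.12). The medians of genes with and without the word were -0.11 and -0.03 for siNCOA3 over siControl, 0.15 and 0.05 for siSHC1 over siNCOA3, and 0.16 and 0.02 for 48 h over 24 h. In these 3 comparisons the median of the genes with the word lay farther from 0, and the difference was not tested.

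**Figure D1:**
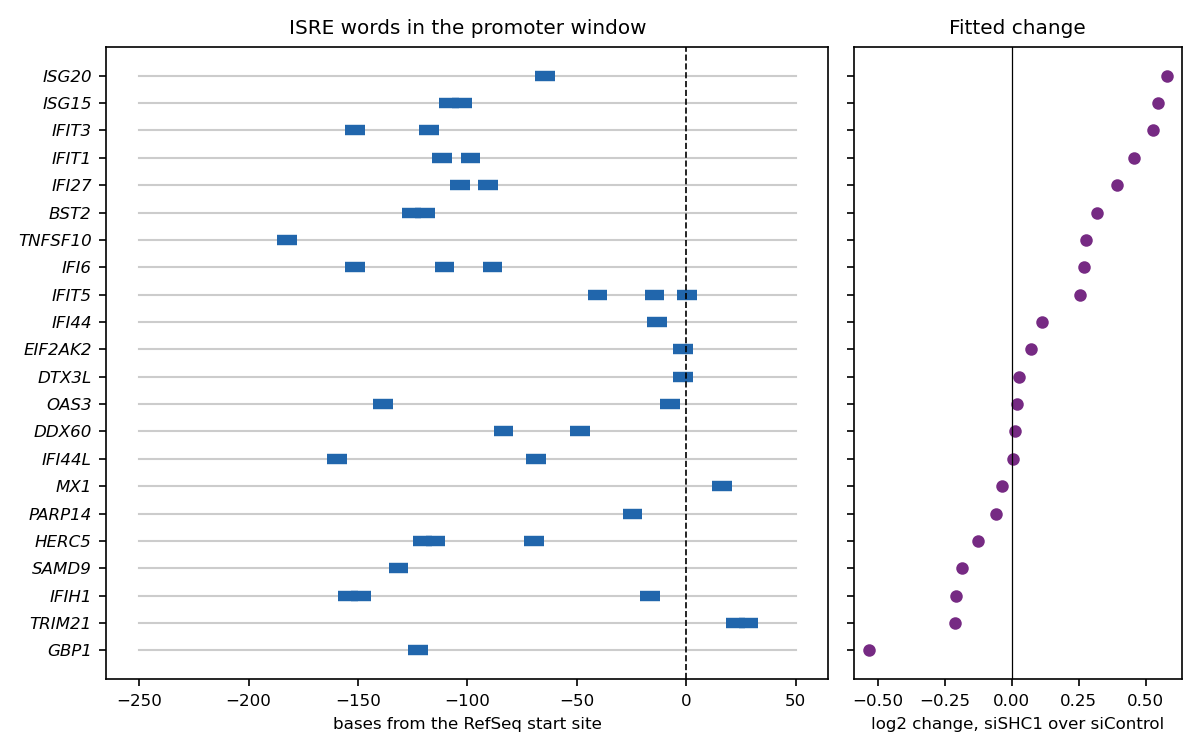
Positions of the ISRE word in the promoters of the 22 genes that hold it, in bases from the RefSeq start site (left, blue bars, start site dashed), beside the fitted log2 change of each gene, siSHC1 over siControl (right). The genes are ordered by this change, from ISG20 at 0.58 to GBP1 at -0.53, and only genes that hold the word are drawn.

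Levels are given in FPKM, a fragment count divided by gene length and by library size, which sets different genes on a per-length scale. None of the 45 genes was listed at 0 in any library. The median of their mean levels was 13.2 FPKM, against 13.1 FPKM over the 11699 genes tested, a gene being tested where 2 or more libraries reached 1 FPKM. Of the 45 genes, 44 passed this filter. The exception was CMPK2, a mitochondrial nucleotide kinase, at 0.0919 to 0.306 FPKM. Only IFI27 and BST2 averaged at least 100 FPKM, ISG15 fell between 50 and 100 FPKM, 22 genes between 10 and 50 FPKM, 18 between 1 and 10 FPKM, and RSAD2 and CMPK2 below 1 FPKM. The sum over the 45 genes was 1026 FPKM at 48 h and 993 FPKM at 24 h with siNCOA3, 1450 and 1131 FPKM with siSHC1, and 1218 and 897 FPKM with siControl. It was highest in the siSHC1 library of 48 h and lowest in the siControl library of 24 h. IFI27 alone made up a large share: without it, the sums were 724 and 718 FPKM with siNCOA3, 964 and 803 FPKM with siSHC1, and 823 and 675 FPKM with siControl.

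NCOA3 was at 1.85 FPKM at 48 h and 1.72 FPKM at 24 h with siNCOA3, against 11.4 and 10.3 FPKM with siControl. SHC1 was at 15.5 and 14.7 FPKM with siSHC1, against 119 and 103 FPKM with siControl. Libraries had 495518 to 553073 FPKM in all, 14796 to 15221 genes above 0 and 17.3% to 18.7% of FPKM from mitochondrial genes. Fragment counts are not in the table. Relative depth, estimated from ratios among low values against the siControl library of 24 h, was 1.31 at 48 h and 1.2 at 24 h with siNCOA3, 1.01 and 1.02 with siSHC1, and 1.45 at 48 h with siControl. Of the line's markers, VIM and CD44 were at 473 FPKM or more, CDH1 at 0.572 FPKM or less, ESR1 at 0.0922 FPKM or less and PGR at 0, while EPCAM had 6.65 to 10.7 FPKM and ERBB2 26.9 to 35.5 FPKM. Of 7 leukocyte markers, CD14 and CD68 were above 1 FPKM. PTPRC, which leukocytes share, was at 0.0549 FPKM or less, CD3E and NCAM1 at 0.0311 FPKM or less, and LILRA4 and CLEC4C at 0. The 7 summed to 61.7 and 66.7 FPKM with siNCOA3, 50.5 and 51.6 FPKM with siSHC1, and 67.4 and 52.0 FPKM with siControl. CD14 alone had 3.79 and 3.58 FPKM with siNCOA3, 6.18 and 4.67 FPKM with siSHC1, and 7.51 and 3.24 FPKM with siControl. Of 4 fibroblast markers, COL1A1 was above 1 FPKM, DCN was at 0 and COL3A1 and LUM were at 0.706 FPKM or less, and the 4 summed to 4.87 and 3.65 FPKM with siNCOA3, 8.19 and 7.38 FPKM with siSHC1, and 3.59 and 2.53 FPKM with siControl. COL1A1 was higher with siSHC1 than with siControl at a limma adjusted p of 0.00738, and its part in the results was not tested.

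The first comparison asks whether loss of NCOA3 changed these genes. No gene of the 44 was called higher or lower with siNCOA3 than with siControl by limma at an adjusted p of 0.05, where 0.111% of all genes tested were called, all of them lower. At an unadjusted p under 0.05, 3 of the 44 passed, TNFSF10, MX1 and XAF1, beside 1232 of 11699 genes. The fitted log2 changes (on the scale of scaled FPKM + 1) had a median of -0.07, against 0.00 over all genes tested, with 13 above 0 and 31 below. This direction rested on the siNCOA3 library of 48 h: without it the median was 0.03, with 27 above 0 and 17 below, and without the siNCOA3 library of 24 h it was -0.16. Single pairs of libraries gave different medians at the 2 times, a difference that could not be tested. At 48 h the median was -0.20, with 12 of 44 above 0, and at 24 h it was 0.02, with 23 of 44 above 0, while the medians over all genes were 0.00 at both.

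TNFSF10 encodes TRAIL, a secreted and membrane-bound ligand that triggers cell death through its receptors. It had 21.0 FPKM at 48 h and 18.4 FPKM at 24 h with siNCOA3, against 47.5 and 27.0 FPKM with siControl. Both siNCOA3 libraries lay below both siControl libraries. The fitted log2 change was -0.88 ± 0.12 (SE), with an adjusted p of 0.0980 by limma, which missed the threshold. In single pairs of libraries, which carry no test, folds are counted here and below on scaled FPKM + 1, so that genes of a few FPKM can pass 1.5-fold in FPKM and not on this scale. TNFSF10 was at -1.12 at 48 h and -0.63 at 24 h on the log2 scale. On this scale GBP2 (-0.65) was the other gene of the 44 at least 1.5-fold lower at 48 h, where none was that much higher, against 2.59% of all genes lower and 1.30% higher. At 24 h TNFSF10 was the one gene that much lower and OAS1 (0.63) the one that much higher on this scale, against 1.45% of all genes lower and 0.966% higher. OAS1 makes the 2′-5′ oligoadenylates that activate RNase L, and it was low in level, at 3.08 FPKM at 24 h with siNCOA3, against 1.51 FPKM with siControl.

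The next largest fitted differences for siNCOA3 were about 0.3 on the log2 scale. MX1, a dynamin-like GTPase that blocks influenza and other viruses, had 14.0 and 13.3 FPKM with siNCOA3, against 18.3 and 14.8 FPKM with siControl. OASL, a relative of the 2′-5′ oligoadenylate synthetases that enhances RIG-I signalling, had 3.27 and 3.70 FPKM, against 5.08 and 3.91 FPKM. XAF1, which antagonises the apoptosis inhibitor XIAP, had 4.94 and 4.81 FPKM, against 6.74 and 5.35 FPKM. In all 3, both siNCOA3 libraries were below both siControl libraries, but fitted log2 changes of -0.30 for MX1, -0.32 for OASL and -0.29 for XAF1 had limma adjusted p-values of 0.411, 0.650 and 0.464. That of OASL was -0.64 without the siNCOA3 library of 24 h and -0.01 without that of 48 h. None of the 4 IFIT genes was called, and their median was -0.13. Among the 14 other effectors, 13 passed the filter and 11 of these lay below 0.

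The second comparison asks the same for loss of SHC1. Of the 44 genes, 1 was called, ISG20, which was higher with siSHC1 than with siControl. Of all genes tested, 3.15% were called higher, 3.36% lower and 6.50% in either direction, so that 1 of 44 was no larger a share than that of genes in general. The median log2 change was 0.06, against 0.00 over all genes, with 29 above 0 and 15 below, and with libraries set to equal FPKM totals it was -0.0029, against -0.05 over all genes, with 22 on each side. It was 0.03 without the siControl library of 24 h, and 0.11 without that of 48 h or without the siSHC1 library of 24 h. At an unadjusted p under 0.05, 12 of the 44 passed, beside 3069 of 11699 genes.

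ISG20 is an exonuclease that degrades single-stranded RNA. It had 7.62 FPKM at 48 h and 4.47 FPKM at 24 h with siSHC1, 3.77 and 2.25 FPKM with siNCOA3, and 4.53 and 2.69 FPKM with siControl. Within each time the siSHC1 library was the highest of the 3, although its 24 h value fell just under the siControl value of 48 h. The fitted log2 change was 0.58 ± 0.12 (SE), with a limma adjusted p of 0.0398. The call was kept in 1 of the 6 fits that left out 1 library, the one without the siNCOA3 library of 24 h. In these fits the log2 change stayed between 0.51 and 0.64. Each of them leaves 1 library for an siRNA, and those without a siControl or siSHC1 library called fewer of all genes too. The call was also lost without the filter on low values (limma adjusted p of 0.123), where 2 of all genes were called, against 761.

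The IFIT genes encode related antiviral proteins and sit next to each other on chromosome 10. Of these proteins, IFIT1 binds foreign RNA by its 5′ end and blocks its translation. IFIT1 had 32.4 FPKM at 48 h and 16.7 FPKM at 24 h with siSHC1, 14.1 and 14.3 FPKM with siNCOA3, and 18.7 and 14.2 FPKM with siControl. IFIT2 had 24.95 and 12.1 FPKM with siSHC1, 9.96 and 8.98 FPKM with siNCOA3, and 12.0 and 8.50 FPKM with siControl. IFIT3 had 58.5 and 35.2 FPKM with siSHC1, 28.8 and 28.4 FPKM with siNCOA3, and 33.6 and 27.6 FPKM with siControl. In each of the 3 the siSHC1 library of 48 h stood above the other 5, while the siSHC1 library of 24 h was far closer to them. IFIT5, the fourth of the family, varied less, at 19.1 and 15.1 FPKM with siSHC1, 15.4 and 15.4 FPKM with siNCOA3, and 14.7 and 12.8 FPKM with siControl. All 4 fitted log2 changes, siSHC1 over siControl, lay above 0, with a median of 0.49 and a range of 0.26 to 0.70. None was called by limma: IFIT2 had the lowest adjusted p, 0.0889, and 2 of the 4 had an unadjusted p under 0.05. In a fit without the siSHC1 library of 24 h, in which the lone siSHC1 library is taken to vary like the others, 5 of the 44 genes were called, IFIT1, IFIT2, IFIT3 and ISG15 higher and GBP1 lower, and ISG20 was not. That fit called 262 of all genes, against 761 with all libraries.

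Because the fit rewards changes of the same size at 48 h and 24 h, single pairs of libraries are given beside it, with no replicate check and no p-value. At 48 h, 6 of the 44 genes were at least 1.5-fold higher on scaled FPKM + 1 with siSHC1 than with siControl, against 3.46% of all genes tested. They were IFIT2 (1.02 on the log2 scale), ISG15 (0.85), IFIT3 (0.81), IFIT1 (0.78), ISG20 (0.66) and MX2 (0.63). GBP1, at -0.75, was the one at least 1.5-fold lower, against 3.66% of all genes. At 24 h, IRF7 was the one gene of the 44 past 1.5-fold higher on this scale, at 0.59, and none was past it lower, against 2.88% and 3.44% of all genes. The medians of the 44 genes were nearly equal at both times, 0.09 at 48 h and 0.13 at 24 h. At 24 h the low genes MX2 and ISG20 stood at 0.55 and 0.50 on this scale, short of 1.5-fold. A difference between the times could not be tested with 1 library each.

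**Figure D2:**
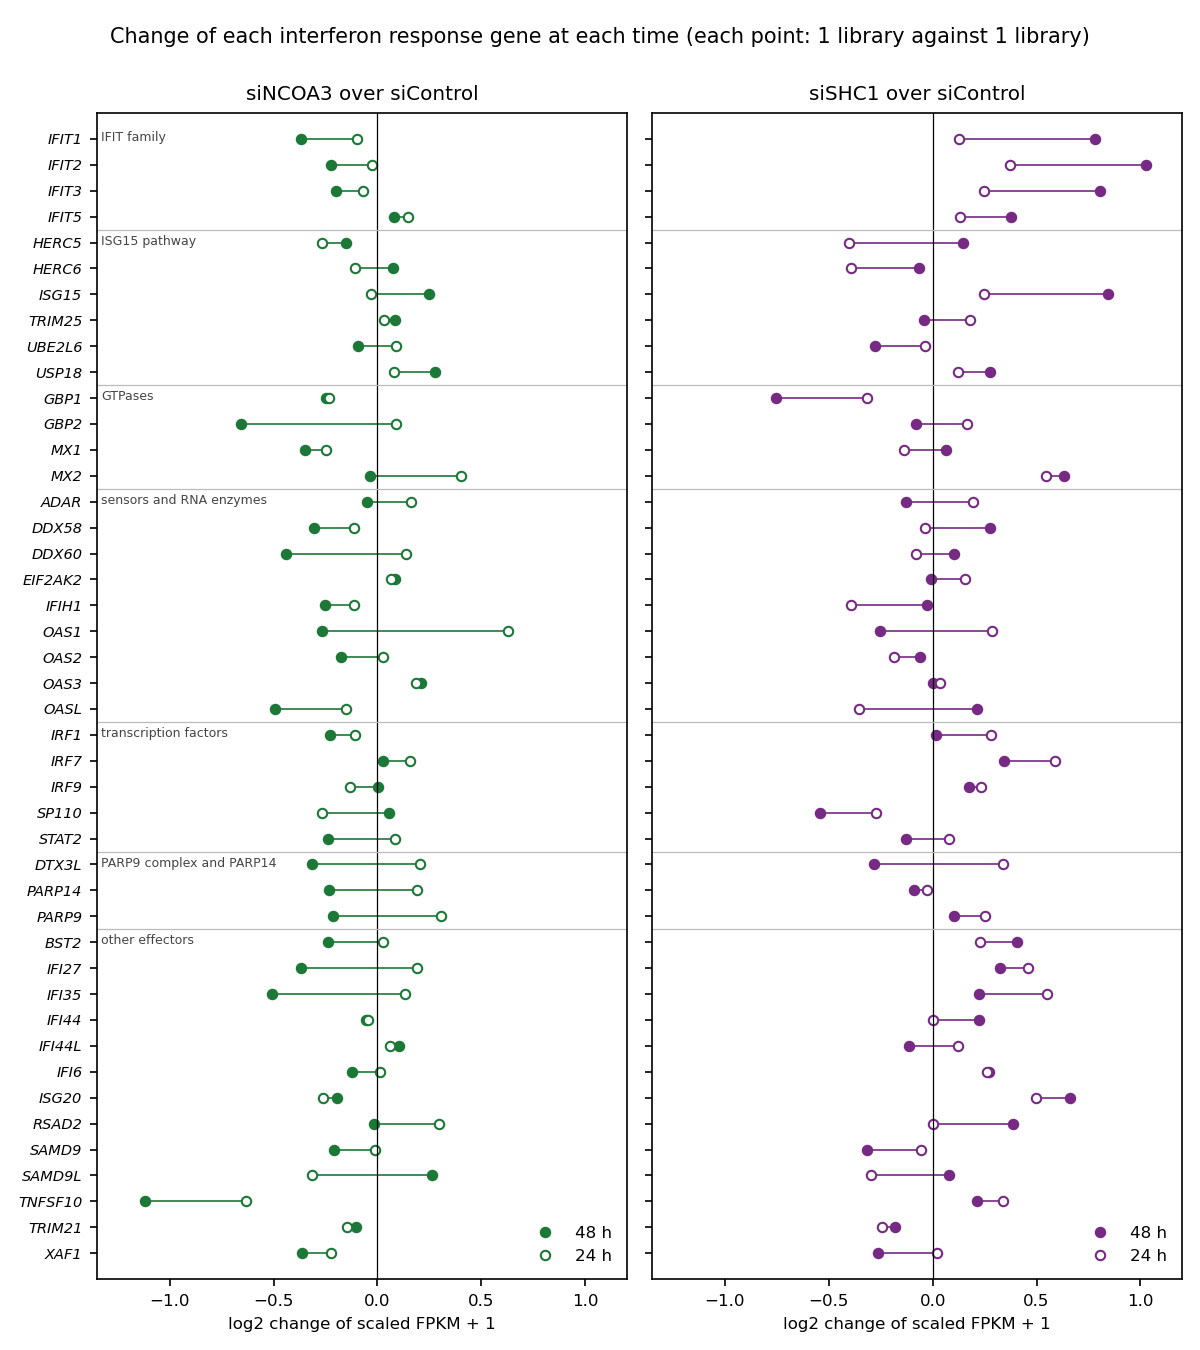
Log2 change of scaled FPKM + 1 for each of the 44 genes that passed the filter, siNCOA3 over siControl (left, green) and siSHC1 over siControl (right, purple), at 48 h (filled) and 24 h (open). With siSHC1, IFIT1, IFIT2, IFIT3 and ISG15 lie between 0.78 and 1.02 at 48 h, and with siNCOA3 TNFSF10 lies at -1.12 and -0.63.

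ISG15 is a ubiquitin-like protein that is attached to other proteins during an antiviral response. It had 124 FPKM at 48 h and 92.4 FPKM at 24 h with siSHC1, 81.9 and 76.9 FPKM with siNCOA3, and 69.6 and 72.7 FPKM with siControl. Both siSHC1 libraries lay above the other 4. The fitted log2 change over siControl, 0.55, had a limma adjusted p of 0.0638. Over the 6 genes grouped here as its pathway, ISG15, HERC5, HERC6, TRIM25, UBE2L6 and USP18, the median was -0.03. Of these, 3 lay above 0 and 3 below, and none was called. TRIM25, a ubiquitin ligase of RIG-I and of ISG15 attachment, had 33.6 and 39.1 FPKM with siSHC1, against 35.2 and 32.1 FPKM with siControl, and its groups overlapped.

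The 4 GTPases lay on both sides of siControl, and none was called. MX2, which blocks nuclear entry of HIV-1, had 3.65 and 2.06 FPKM with siSHC1, against 2.04 and 1.02 FPKM with siControl, a fitted log2 change of 0.59 with a limma adjusted p of 0.0842. MX1 had 18.8 and 14.3 FPKM with siSHC1, against 18.3 and 14.8 FPKM with siControl, which overlap. GBP1, a guanylate-binding protein picked here after its values were seen, had 10.8 and 15.6 FPKM with siSHC1, 15.8 and 16.7 FPKM with siNCOA3, and 19.2 and 18.4 FPKM with siControl. Both siSHC1 libraries lay below the other 4, with a fitted log2 change over siControl of -0.53 and a limma adjusted p of 0.0584. GBP1 and the IFIT genes thus stood on opposite sides of siControl in the same libraries.

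None of the sensors or transcription factors was called. Over the 9 sensors and RNA enzymes the median log2 change, siSHC1 over siControl, was 0.02 and the range -0.21 to 0.12. ADAR, which edits double-stranded RNA, had 46.3 FPKM at 48 h and 50.7 FPKM at 24 h with siSHC1, 49.2 and 50.1 FPKM with siNCOA3, and 51.7 and 41.3 FPKM with siControl. OASL had 5.94 and 3.05 FPKM with siSHC1, against 5.08 and 3.91 FPKM with siControl, so that it lay above siControl at 48 h and below it at 24 h. Over the 5 transcription factors the median was 0.15 and the range -0.41 to 0.47. IRF1, a factor that activates many of these genes, had 42.6 and 47.7 FPKM with siSHC1, 36.0 and 36.5 FPKM with siNCOA3, and 43.0 and 36.5 FPKM with siControl. IRF7, which amplifies interferon production and was picked after its values were seen, had 9.60 and 8.42 FPKM with siSHC1, 7.55 and 6.02 FPKM with siNCOA3, and 7.51 and 4.91 FPKM with siControl. Both siSHC1 libraries were the highest for IRF7, with a limma adjusted p of 0.0577 against siControl.

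The most abundant effectors also peaked in the siSHC1 library of 48 h. IFI27, a mitochondrial protein, had 486 FPKM at 48 h and 328 FPKM at 24 h with siSHC1, 302 and 274 FPKM with siNCOA3, and 395 and 223 FPKM with siControl. BST2, or tetherin, which holds budding virus at the cell surface, had 159 and 120 FPKM with siSHC1, 102 and 105 FPKM with siNCOA3, and 122 and 95.3 FPKM with siControl. Neither was called against siControl, with limma adjusted p-values of 0.121 for IFI27 and 0.125 for BST2. Counted over all 44 genes, the siSHC1 library of 48 h held the highest value of 20, against 25.8% of all genes tested, and the siControl library of 24 h held the lowest value of 15, against 17.3% of all genes.

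**Figure D3:**
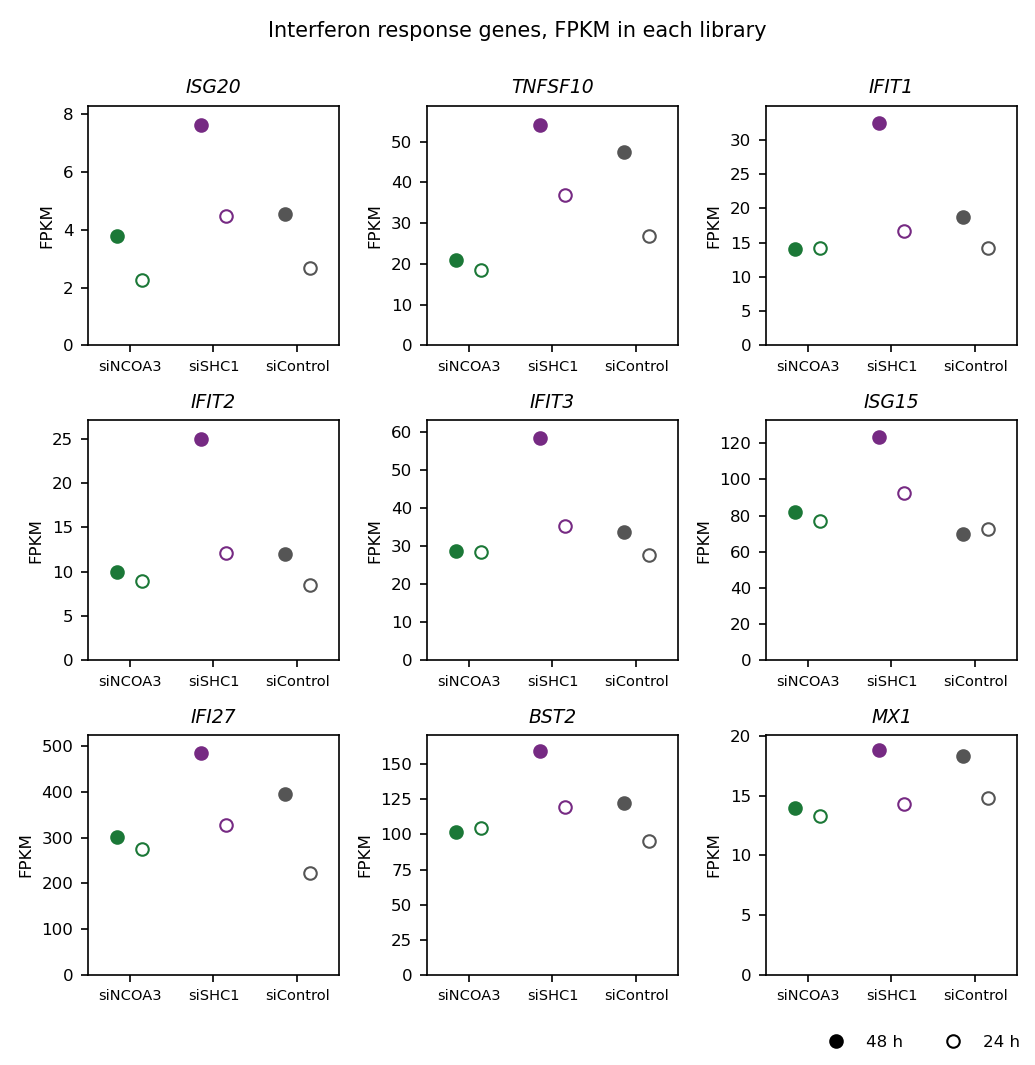
FPKM of 9 interferon response genes in each of the 6 libraries, siNCOA3 (green), siSHC1 (purple) and siControl (grey), at 48 h (filled) and 24 h (open). For IFIT1, IFIT2 and IFIT3 the siSHC1 library of 48 h stands apart from the other 5, while for TNFSF10 both siNCOA3 libraries are the lowest, at 21.0 and 18.4 FPKM.

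The third comparison sets the 2 targeting siRNAs against each other, and it held the most calls. Of the 44 genes, 3 were higher with siSHC1 than with siNCOA3, namely TNFSF10, ISG20 and IFIT2, and none was lower, where 5.35% of all genes were called higher, 4.59% lower and 9.94% in either direction. The share of the 44 genes was thus close to that of genes in general. The median log2 change was 0.14, against -0.0009 over all genes, with 29 above 0 and 15 below, and 16 of the 44 had an unadjusted p under 0.05, beside 3453 of 11699 genes. Without the 48 h library of siSHC1 the median was 0.09, without that of siNCOA3 it was 0.05, and dropping the 24 h library of siSHC1 or siNCOA3 gave 0.21 or 0.19. TNFSF10 had 54.2 FPKM at 48 h and 36.8 FPKM at 24 h with siSHC1, against 21.0 and 18.4 FPKM with siNCOA3, a fitted log2 change of 1.15 ± 0.12 (SE) with a limma adjusted p of 0.00544. Its siControl values, 47.5 and 27.0 FPKM, were close to siSHC1 at 48 h and about midway between both siRNAs at 24 h. ISG20 differed by 0.81 ± 0.12 (SE) with an adjusted p of 0.0121, and IFIT2 by 0.83 ± 0.20 (SE) with an adjusted p of 0.0499, both by limma. The call of TNFSF10 was kept in all 6 fits that left out 1 library. That of ISG20 was lost without the 48 h library of siSHC1 (0.0981) or of siNCOA3 (0.0888). That of IFIT2 was kept without the 24 h library of siSHC1 (0.0128) or of siNCOA3 (0.0462), and lost without either siControl library (0.0825 and 0.0846) or either of the other 48 h libraries (0.196 and 0.260). The count of calls was 7 without the siSHC1 library of 24 h, 6 without the siNCOA3 library of 24 h, and 1 without the 48 h library of either siRNA. These fits called 494, 757 and, for the siSHC1 and siNCOA3 libraries of 48 h, 261 and 156 of all genes, against 1163 with all libraries. This comparison shares its libraries with the comparisons against siControl, so that it is no independent evidence of them.

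At 48 h, 11 of the 44 genes were at least 1.5-fold higher on scaled FPKM + 1 with siSHC1 than with siNCOA3, against 6.07% of all genes tested, and SP110, a nuclear body protein, was the one that much lower (-0.60), against 4.22%. At 24 h TNFSF10 and ISG20 were that much higher, against 3.22%, and none was lower, against 3.16%. The median of the 44 genes was 0.26 at 48 h and 0.05 at 24 h, with 31 and 26 of 44 above 0. The 11 genes at 48 h were TNFSF10, the 3 IFIT genes shown above, ISG20, IFI35, OASL, IFI27, MX2, BST2 and ISG15. TNFSF10 led them at 1.33, and ISG15 was the last at 0.60.

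Between the times, no gene of the 44 was called by limma for 48 h against 24 h, where 0.0256% of all genes tested were called, 0.0171% higher and 0.00855% lower. At an unadjusted p under 0.05, 10 of the 44 and 1651 of 11699 genes passed. The median log2 change was 0.11, against -0.0017 over all genes, with 33 above 0 and 11 below. It was 0.06 without either siSHC1 library and 0.20 without either siNCOA3 library. The largest fitted changes were those of ISG20 (0.57), IFIT2 (0.50), IFI27 (0.48) and TNFSF10 (0.48), with adjusted p-values of 0.286 to 0.297 by limma. Each siRNA gave its own median, and the differences between them were not tested. Within siNCOA3 the median of the 44 genes was 0.02, with 25 above 0, within siSHC1 0.21, with 31 above 0, and within siControl 0.18, with 34 above 0.

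On scaled FPKM + 1, none of the 44 genes was past 1.5-fold between the times in either direction with siNCOA3, against 0.915% of all genes higher and 0.701% lower. With siSHC1, 6 were at least 1.5-fold higher at 48 h than at 24 h, against 2.69% of all genes: IFIT2 (1.00), IFIT1 (0.93), OASL (0.78), IFIT3 (0.73), ISG20 (0.66) and MX2 (0.61). None was that much lower, against 1.5%. With siControl, 3 were, against 2.46% of all genes: GBP2 (0.72), IFI27 (0.71) and TNFSF10 (0.68). None was that much lower, against 1.36%. ISG20 and MX2, at a few FPKM, had 4.53 and 2.04 FPKM at 48 h with siControl, against 2.69 and 1.02 FPKM at 24 h, and did not pass on this scale. GBP2, a guanylate-binding protein, had 11.9 FPKM at 48 h and 12.3 FPKM at 24 h with siNCOA3, against 19.6 and 10.6 FPKM with siControl. The siControl library of 48 h was also the deepest by the estimate above, and the part of depth in these values was not tested. With 1 library each, a time course that differs between siRNAs could not be tested.

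**Figure D4:**
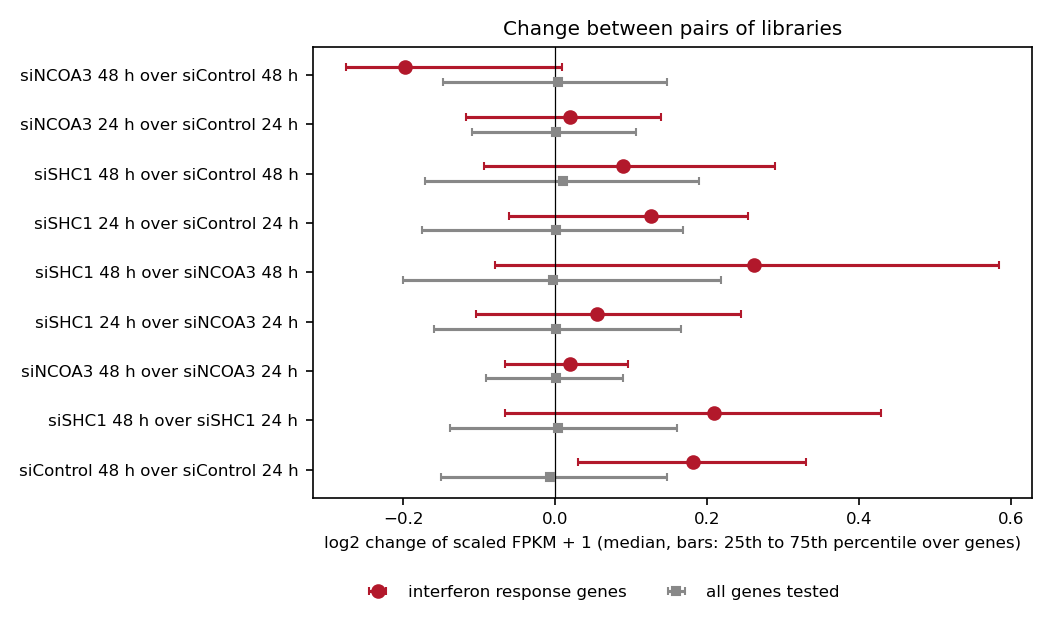
Median log2 change of scaled FPKM + 1 over the 44 interferon response genes (red circles) and over all 11699 genes tested (grey squares) for each pair of libraries, with bars from the 25th to the 75th percentile over genes. The 44 genes lie at -0.20 for siNCOA3 over siControl at 48 h and at 0.26 for siSHC1 over siNCOA3 at 48 h, while the medians over all genes stay near 0.

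The rest of the pathway was read from a list of 117 further symbols, of which 80 passed the filter. No interferon gene was expressed at a level the filter keeps. Of the 21 ligands, 20 were listed at 0 in all 6 libraries, and IFNL1, a type III interferon, was listed at 0.146 FPKM in the siSHC1 library of 24 h and at 0 in the others. The receptors were present: IFNAR1, a chain of the type I receptor, had 15.9 FPKM at 48 h and 18.9 FPKM at 24 h with siSHC1, 18.4 and 20.3 FPKM with siNCOA3, and 19.1 and 17.8 FPKM with siControl.

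With siNCOA3, no gene of the 80 was called against siControl by limma, against 0.111% of all genes tested. At an unadjusted p under 0.05, 8 of the 80 passed, beside 1232 of 11699 genes. With siSHC1, 5 were called higher and 4 lower than with siControl, against the same 3.15% and 3.36% of all genes tested. Of these 9, MAVS, TMEM173, IRF3, IFI16 and JAK1 act before the effectors. MAVS, the adaptor that RIG-I and MDA5 need, had 19.02 FPKM at 48 h and 17.5 FPKM at 24 h with siSHC1, 35.1 and 33.2 FPKM with siNCOA3, and 32.1 and 27.9 FPKM with siControl. Both siSHC1 libraries lay far below the other 4. The fitted log2 change over siControl was -0.72 ± 0.08 (SE), with a limma adjusted p of 0.00816, which was 0.0667 or 0.0761 without the siControl library of 48 h or of 24 h.

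TMEM173, or STING, the adaptor of DNA sensing, was higher with siSHC1. It had 24.4 FPKM at 48 h and 13.6 FPKM at 24 h with siSHC1, 9.02 and 7.63 FPKM with siNCOA3, and 10.05 and 7.15 FPKM with siControl. The fitted log2 change over siControl was 0.99 ± 0.15 (SE), with a limma adjusted p of 0.0182, and the call was lost without either siControl library (0.131 and 0.106) or the siSHC1 library of 48 h (0.0809). IRF3, which both adaptors activate, had 74.6 and 61.8 FPKM with siSHC1, 57.8 and 58.0 FPKM with siNCOA3, and 51.6 and 47.2 FPKM with siControl, and was called at a limma adjusted p of 0.0498, a call that was lost on leaving out any 1 library (0.0557 to 0.294). IFI16, a nuclear DNA sensor, had 30.5 and 32.8 FPKM with siSHC1, 44.9 and 41.9 FPKM with siNCOA3, and 42.8 and 39.6 FPKM with siControl, with a limma adjusted p of 0.0453. JAK1, the kinase of the receptors, had 21.6 and 22.2 FPKM with siSHC1, 29.3 and 29.9 FPKM with siNCOA3, and 31.6 and 28.5 FPKM with siControl, with a limma adjusted p of 0.0271. The calls of IFI16 and JAK1 were kept without either siNCOA3 library and lost without any other library, at 0.0962 to 0.259 for IFI16 and 0.0952 to 0.153 for JAK1. Without the filter on low values, none of these 5 genes was called, but that fit called 2 of all genes, against 761 with the filter. Fits without a siControl or siSHC1 library also called fewer of all genes, so that lost calls are not particular to the genes named here. With the filter, the adaptor of RNA sensing, a DNA sensor and a receptor kinase fell with siSHC1, while the adaptor of DNA sensing and IRF3 rose.

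**Figure D5:**
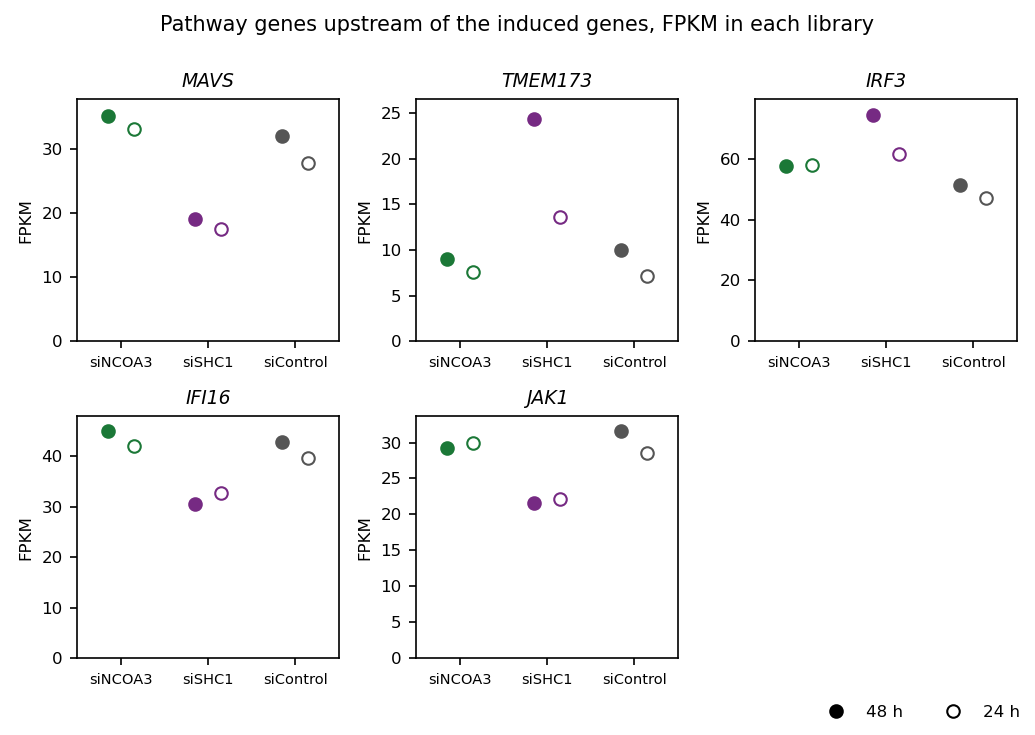
FPKM of 5 pathway genes in each of the 6 libraries, siNCOA3 (green), siSHC1 (purple) and siControl (grey), at 48 h (filled) and 24 h (open). With siSHC1, MAVS lies at 19.02 and 17.5 FPKM and TMEM173 at 24.4 and 13.6 FPKM, in each case on 1 side of the other 4 libraries.

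The other 4 called with siSHC1 were IRF2, a repressor of interferon responses, at 0.41, LY6E, a surface protein that restricts coronaviruses, at 0.49, and SHISA5, at 0.35, all higher, and the immunoproteasome subunit PSMB8, at -0.38. Each of these calls was lost without either siControl library, at adjusted p-values of 0.179 to 0.210, and without the siSHC1 library of 48 h, at 0.160 to 0.227. Against siNCOA3, 5.35% of all genes tested were called higher with siSHC1 and 4.59% lower. Of the 80 genes, 5 were called higher, IL10RB, TMEM173, TAP1, SOCS1 and LY6E, and MAVS, JAK1 and IFI16 were called lower. Of these, the call of MAVS was kept in all 6 fits that left out 1 library, and that of each other gene was lost without the siNCOA3 library of 48 h, at adjusted p-values of 0.0845 to 0.254. SOCS1, which inhibits JAK kinases, had 6.66 FPKM at 48 h and 7.13 FPKM at 24 h with siSHC1, against 4.16 and 4.08 FPKM with siNCOA3. For 48 h against 24 h none of the 80 was called by limma, against 0.0256% of all genes tested. At an unadjusted p under 0.05, 15 of the 80 passed, beside 1651 of 11699 genes. Of the 3 most abundant genes of each role, LY6E, IRF3 and IL10RB were called as given above. The others were not called in any comparison. Beside IFNAR1 they included the receptor chain IFNGR2 and the phosphatases PTPN1, PTPN11 and PTPN2, at 19.8 to 65.2 FPKM, TYK2 and STAT6 at 47.7 to 80.6 FPKM, the helicases DDX3X and DHX9 at 48.7 to 173 FPKM, and IFITM3 and LGALS3BP at 234 to 450 FPKM.

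The longest annotated 3′ UTR of MAVS, of 9976 bases, holds the word GCCCATC at 2 places. They lie within chr20:3868735-3868764 and chr20:3870789-3870818 of GRCh38 on the plus strand. The word is shown because genes that hold it were lower in siSHC1 libraries. It was taken from an earlier search of these same fold changes, so that its relation to them supports nothing. Capitals mark the word.

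MAVS, first place: ggcatggcggcGCCCATCtatagtcccagc
MAVS, second place: aatccccatgaGCCCATCacccaacttcag

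The longest annotated 3′ UTR of each gene was searched. A longer one is more likely to hold any given word, and length was not taken into account. Over all genes with an annotated 3′ UTR, 966 of 10919 (8.85%) held the word. Their median log2 change, siSHC1 over siControl, was -0.12, against 0.01 for those without it. None of the 44 interferon response genes held it. In the wider list 4 of 78 held it, MAVS, TRIM14, TRIM38 and TRIM56, and their median was -0.23, with MAVS the one called. Whether the word belongs to an siRNA of the siSHC1 treatment is not known, and its part in the level of MAVS was not tested. A second word, GTCAAGA, was searched for siNCOA3 over siControl. It was held by 1 of the 44 genes, OAS2 (-0.07), and by 8 of 78 in the wider list, none of them called. The median of these 8 was 0.03, against -0.07 for those without it. Over all genes it was -0.04 with the word and 0.01 without.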

How the data were processed

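RNA was extracted with Trizol and made into libraries with a stranded mRNA kit, per the labels' protocols. The submitters' processing notes name STAR, Cufflinks, DESeq2 and the build hg19, without versions or roles. The annotation, the filters and the use of strand are not stated in the sources used here. The authors deposited 1 table of 20111 symbols, and although it is named for read counts its values are FPKM: they are not whole, and only 46.7% to 48.3% of ratios among values under 0.3 FPKM fell on whole-fragment steps (tolerance 0.02 in log2), too few to recover counts. Counts, intervals and detection limits are therefore not given.

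From these values, each library's FPKM were divided by a median-of-ratios factor from 13878 genes (0.946 to 1.025). The 11699 genes that reached 1 FPKM in 2 or more libraries were fitted as log2(scaled FPKM + 1), which understates changes of low genes, with limma 3.58.1 in R 4.3.3 (trend and robust moderation). All 6 libraries entered 1 additive model of siRNA and time, leaving 2 residual degrees of freedom, so that an siRNA-by-time difference counts as error and cannot be tested. The 2 libraries of an siRNA differ in time and are its only replicates, and p-values reflect only the spread among them, part of which may be technical. P-values were adjusted by Benjamini-Hochberg over all genes tested, at 0.05. Libraries were also simulated, 1 set for each comparison, with independent noise for each gene and no siRNA-by-time difference. In these, false calls made up a larger share of the calls than the threshold allows. The real libraries can differ from them in both respects. Calls near the threshold are therefore weak.

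The 45 genes, the wider list and the 3′ UTR words were chosen with earlier results of these data known. The named genes are those called in any comparison, the 8 with the highest mean FPKM and, for each comparison, the 4 with the largest fitted change. From the wider list they are the called genes and the 3 with the highest means of each role. Others are said to be picked after their values were seen or are the full membership of a count. Symbols were matched to RefSeq promoters (GRCh38.p14) and GENCODE 29 3′ UTRs (GRCh38). All coordinates are of that build and not of the authors' hg19. OAS2, OASL, IRF7, IFIT2, USP18, MX2 and GBP2 had no promoter entry. Paralogues such as the OAS and MX genes, and neighbours that overlap, are uncertain where the authors' counting could have split their fragments. Alternatives were no scaling, equal FPKM totals, other filters and pseudocounts, other moderation, a fit without the second term, and leaving out each library. Python 3.11.15, pandas 2.3.3, numpy 2.4.6 and matplotlib 3.10.9 were used for the sequence searches and plots.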

Additional observations from a re-analysis of the deposited data

Results flagged for a closer look

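OAS1, a 2′-5′ oligoadenylate synthetase, moved in opposite directions with time in cells given different siRNAs. On the log2 scale of scaled FPKM + 1, 48 h over 24 h, it was at -0.42 with siNCOA3 and at 0.47 with siControl. Its levels were 2.02 FPKM at 48 h and 3.08 FPKM at 24 h with siNCOA3, against 2.67 and 1.51 FPKM with siControl. It was singled out because both changes passed a set size in opposite directions, and it was the 1 gene of the 44 of which this held. The difference was not tested, as each siRNA and time has 1 library, and the levels are low.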

How the results depend on the processing

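None of the 44 genes was called for siNCOA3 over siControl under any alternative. Of 240 alternative values of the genes named among the 44, none reversed, 22 lost a call and 6 gained one. Only values of genes called in the main fit could lose a call. For siSHC1 over siControl, ISG20 kept its call in 8 of 15 alternatives. For siSHC1 over siNCOA3, TNFSF10 kept it in 13 of 15, ISG20 in 11 and IFIT2 in 6. In the wider list, IRF3 kept its call for siSHC1 over siControl in 4 of 15 alternatives and MAVS in 12 of 15. For siSHC1 over siControl, the 1 called gene became 2 with no scaling (ISG20 and ISG15) and 2 with equal FPKM totals (ISG20 higher, GBP1 lower). It became 0 with no filter on low values, where 2 of all genes were called, and 0 with no term for time, where 225 were, against 761. For siNCOA3 over siControl, 0 of all genes were called with no filter. Fits lacking either siControl library or the later siSHC1 library gave 0, and 5 were called when the earlier siSHC1 library was dropped. The median change over the 44 genes was 0.0902 with no scaling (0.0351 over all genes) and -0.0029 with equal totals (-0.0516 over all genes), and 0.03 to 0.1114 with 1 library left out. For siSHC1 over siNCOA3, the 3 calls became 0 with no filter and 0 with no term for time, and 1 to 7 with 1 library left out. For 48 h over 24 h, the count was 0 to 1, the 1 being IFI27 without either siNCOA3 library. Libraries of the same time are already matched by the time term of the model, and the labels give no replicate numbers for another block. Alternatives for the wider list were added after the data were seen. Depth is known only as an estimated ratio between libraries, so that differences among genes of a few FPKM, such as OAS1, MX2 and OASL, carry an unknown counting error.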
